A study of Mus musculus with 15 samples.

Results

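NSD2 knockout (KO) fibroblasts were compared with wild-type (WT) fibroblasts before either had met interferon. The comparison used 4 of the 15 RNA-seq libraries of the study, chosen by their titles. They were the 2 libraries labelled NSD2 KO, naive, 0 h, described as Nsd2(-/-), and the 2 labelled WT, naive, 0 h, described as Nsd2(+/+). Both genotypes were fibroblasts from C57BL/6 mouse embryos (MEFs), which make the fibres of connective tissue, kept in DMEM with donor bovine serum, and none of these 4 cultures had been given interferon. The other groups, used below only to see whether a difference recurred, were KO and WT cells that had 3 h of interferon beta and then, after a wash, 24 h of rest (pretreated 0 h), and naive or pretreated cells then given 100 units per ml of interferon beta for 2 h (naive 2 h and pretreated 2 h). Each of those groups had 2 libraries per genotype, except KO naive 2 h, which had 1.

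The labels do not say how many lines or embryos stood behind each genotype, how the knockout was made, or whether replicates were separate cultures. Loss of NSD2 and any other difference between the KO and WT cell lines therefore cannot be told apart, and p-values measure the spread between libraries, which may be technical. In bulk RNA, fewer cells of a type and less RNA per cell also cannot be told apart.

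NSD2 places methyl groups on lysine 36 of histone H3, mostly the dimethyl form, over gene bodies and between genes. H3K36 methylation is known to oppose the silencing mark on lysine 27 that Polycomb repressive complex 2 (PRC2) lays down, and it guides DNA methyltransferases. In fibroblasts NSD2 has been tied to transcription elongation and to the deposition of the histone variant H3.3, and the study set it beside the interferon response, in which a receptor signals through JAK kinases and STAT factors to a large set of antiviral genes.

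The 4 libraries held 41600059 and 17170845 counts in genes for WT replicates 1 and 2, and 23961120 and 40149786 for KO. Rn45s, a ribosomal RNA precursor, and Lars2 accounted for 10.6% of the counts in WT replicate 1 and 24.6% to 25.7% in the other 3 libraries. Levels are CPM, counts of a gene scaled to the size of its library with TMM factors, to be compared between libraries and not between genes, and changes are log2 of KO over WT ± SE. A gene was called where the adjusted p of edgeR's quasi-likelihood test was below 0.05. Of 24015 listed genes, 13802 had enough counts to be tested.

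Without interferon, KO and WT cells differed at most tested genes. EdgeR called 9258 of the 13802 genes (67.1%), 4738 higher in KO (34.3%) and 4520 lower (32.7%). Differences of at least 2-fold were fewer, at 1570 genes higher (11.4%) and 1067 lower (7.73%). In 11250 of the 13802 tested genes the KO and WT libraries did not overlap in CPM. The median log2 change over all tested genes was 0.0094. The counts below are to be read against these percentages. Without WT replicate 1, which stood apart in Rn45s and Lars2, 7918 genes were called, 1465 of them at least 2-fold higher and 1024 at least 2-fold lower.

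**Figure D1:**
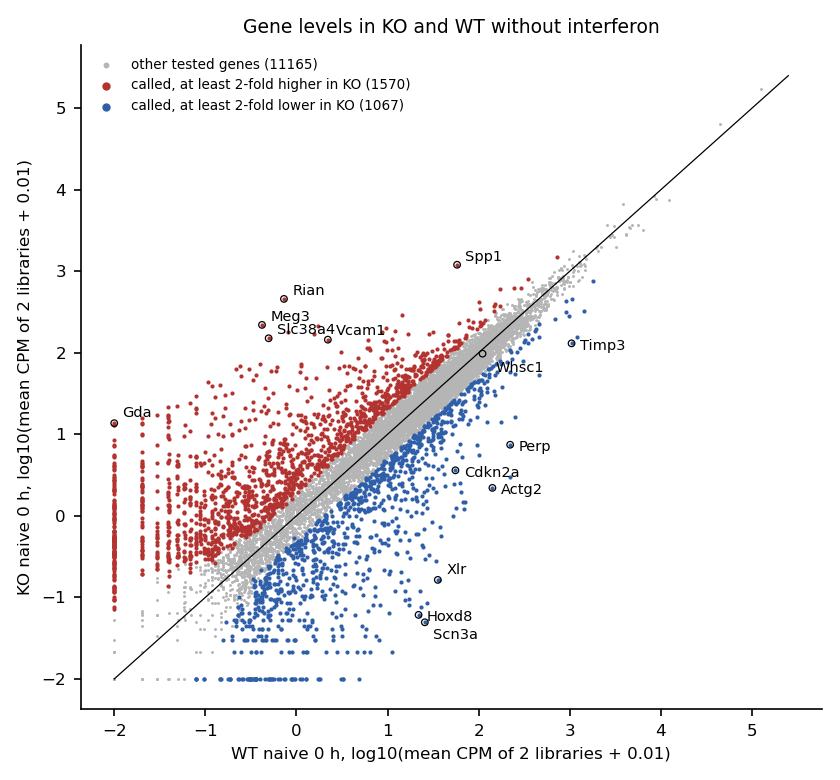
Mean level of each tested gene in the 2 KO libraries (vertical axis) against the 2 WT libraries (horizontal axis), both as log10 of CPM plus 0.01, with genes called and at least 2-fold higher (red, 1570) or lower (blue, 1067) in KO. Whsc1 lies near the diagonal, while Rian, Meg3 and Gda lie far above it and Scn3a and Hoxd8 far below.

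The targeted gene, listed under its older symbol Whsc1, was still counted in KO. Whsc1 was at 112 and 108 CPM in WT and 95.7 and 99.7 CPM in KO. The groups did not overlap, but the difference was small, a log2 change of -0.18 ± 0.047 (edgeR adjusted p = 0.0013). Since these reads were summed along all exons, they cannot show whether some exons are missing, and KO and WT stand here for the labels of the libraries.

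The rest of the H3K36 machinery moved little. Of the 22 tested genes of the NSD2 and H3K36 list, 9 were higher and 7 lower, with 1 in each direction by at least 2-fold and a median log2 change of 0.055. Setd2, the main enzyme for trimethylation of H3K36, was at 242 and 269 CPM in KO and 119 and 115 CPM in WT, 2.19-fold higher (edgeR adjusted p = 1.8e-18). Setmar, another methyltransferase gene, was at 0.555 and 1.05 CPM in KO and 2.37 and 1.91 CPM in WT, 2.58-fold lower (edgeR adjusted p = 3.9e-05). These 2 were the members past 2-fold. Without KO replicate 1 or without WT replicate 2, a second member passed 2-fold higher.

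The closest relatives of NSD2 did not make up a common pattern. Nsd1, which makes the same dimethyl mark, was at 47.9 and 54.1 CPM in KO and 63.0 and 60.2 CPM in WT (log2 change -0.27 ± 0.058, edgeR adjusted p = 0.00016). Whsc1l1, which encodes NSD3, was at 58.2 and 66.8 CPM in KO and 60.8 and 59.2 CPM in WT and was not called (edgeR adjusted p = 0.36). The readers and partners Psip1 and Iws1 were both higher, with log2 changes of 0.63 ± 0.055 and 0.61 ± 0.050. Ash1l, Kdm2a, Kdm2b, Kdm4a, Kdm4b, Kdm4c, Morf4l1, Mtf2, Phf8, Setd3, Smyd2, Supt6 and Brpf1 lay between -0.39 and 0.32, the calls of Ash1l, Kdm2a, Kdm4a and Kdm4c being lost without 1 library or another, and Phf1 and Phf19, Tudor-domain partners of PRC2 that bind H3K36 methylation, were higher by 0.70 ± 0.11 and 0.97 ± 0.16.

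Of the PRC2 and DNA methylation genes, 7 of 17 tested were higher, 5 lower and none by 2-fold. Ezh2, the catalytic subunit of PRC2, was at 31.7 and 29.0 CPM in KO and 41.9 and 39.2 CPM in WT (log2 change -0.44 ± 0.072). Aebp2, an accessory subunit, had the largest fall of the list at -0.90 ± 0.054, and Tet2, which oxidises methylated cytosine, the largest rise at 0.73 ± 0.077. Suz12, Rbbp4, Jarid2, Tet1 and Kdm6b were not called. The de novo methyltransferases Dnmt3a and Dnmt3b were higher by 0.41 ± 0.080 and 0.50 ± 0.17, the second of these losing its call with DESeq2 and without WT replicate 1 (edgeR adjusted p up to 0.28 over the alternatives).

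Among the H3.3 genes and chaperones, 6 of 14 were higher and 4 lower, none by 2-fold. H3f3a, which encodes H3.3, was at 178 and 165 CPM in KO and 127 and 126 CPM in WT (log2 change 0.44 ± 0.060), while H3f3b, which encodes the same protein, was at 389 and 378 CPM in KO and 417 and 446 CPM in WT (-0.17 ± 0.046), a call that was lost without WT replicate 2. Hira, the chaperone that deposits H3.3 in active genes, and Daxx, the chaperone for silent regions, were not called (edgeR adjusted p = 0.32 and 0.052). Of the bromodomain (BET) proteins and elongation factors, 8 of 16 were higher and 5 lower. Ell2, an elongation factor, was the member past 2-fold, at 18.9 and 18.3 CPM in KO and 40.0 and 39.7 CPM in WT.

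The largest differences were between a transcribed and a near-silent state. By a cut of at least 5 CPM in one genotype and below 0.5 CPM in the other, 100 genes were on in KO and near silent in WT, and 59 were on in WT and near silent in KO. The 20 largest rises and 20 largest falls all kept their call in each of the 10 alternatives. The alternatives refitted the libraries from which these genes were chosen, so this is not independent of the choice.

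The 20 largest rises included enzymes, matrix proteins and secreted inhibitors. Gda, a guanine deaminase, was at 14.5 and 12.95 CPM in KO and had no count in WT, at least 306-fold higher (edgeR adjusted p = 8.1e-19). Matn4, a matrix protein of the matrilin family, was at 13.7 and 12.5 CPM against no count, at least 294-fold higher. Serpine2, a secreted protease inhibitor, was at 12.5 and 13.2 CPM against no count, at least 293-fold higher. In each of these the WT libraries were empty, so each fold is a lower bound that takes 3 counts as the group's limit of detection.

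Pde9a, Kank4, Tril, Irak3, Col15a1 and Pnmal2 likewise had no WT count and were at least 118-fold to 197-fold higher. Tril and Irak3 encode an accessory protein and a brake of Toll-like receptor signalling. Lrp3 was at 21.8 and 21.2 CPM in KO with 0 and 0.0579 CPM in WT, a ratio of 1458 (95% counting interval 261 to 57610). The interval is wide because the WT libraries held a single count between them. Cdca7l, Sytl5, Dock10, Stmn2, S1pr3, Adamts9, Aplp1 and Pde3b followed, each at 11.6 to 22.8 CPM in the KO libraries and at or below 0.0579 CPM in the WT libraries.

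The 20 largest falls included channels, enzymes and patterning genes. Scn3a, a voltage-gated sodium channel, was at 26.6 and 24.8 CPM in WT and 0.0792 and 0 CPM in KO, a ratio of 888 (95% counting interval 246 to 7340). Pla2r1, the M-type phospholipase A2 receptor, was at 10.9 and 11.7 CPM in WT and 0 and 0.0234 CPM in KO, a ratio of 753 (135 to 29789). Galnt13, a glycosyltransferase, was at 27.0 and 27.3 CPM in WT and 0.0792 and 0.0702 CPM in KO, 349-fold lower (edgeR adjusted p = 1.1e-24). Cacna2d1, a calcium channel subunit, was 271-fold lower from 37.4 and 36.5 CPM, and Dmd, the dystrophin gene, was 271-fold lower from 16.6 and 17.8 CPM.

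Xlr, an X-linked gene known from lymphoid and germ cells, was at 33.1 and 38.3 CPM in WT and 0.238 and 0.0702 CPM in KO, 257-fold lower. Kcnq5, AI662270, Prkar1b, Slc6a17, Nxf3, Plcl2, Lipo1, Cap2, Cdh18 and Ndnf were the others outside the patterning genes, each at 5.34 to 34.7 CPM in the WT libraries and at or below 0.374 CPM in the KO libraries. The largest rises and falls were chosen among genes whose libraries do not overlap between the genotypes, so their separation is part of the choice.

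**Figure D2:**
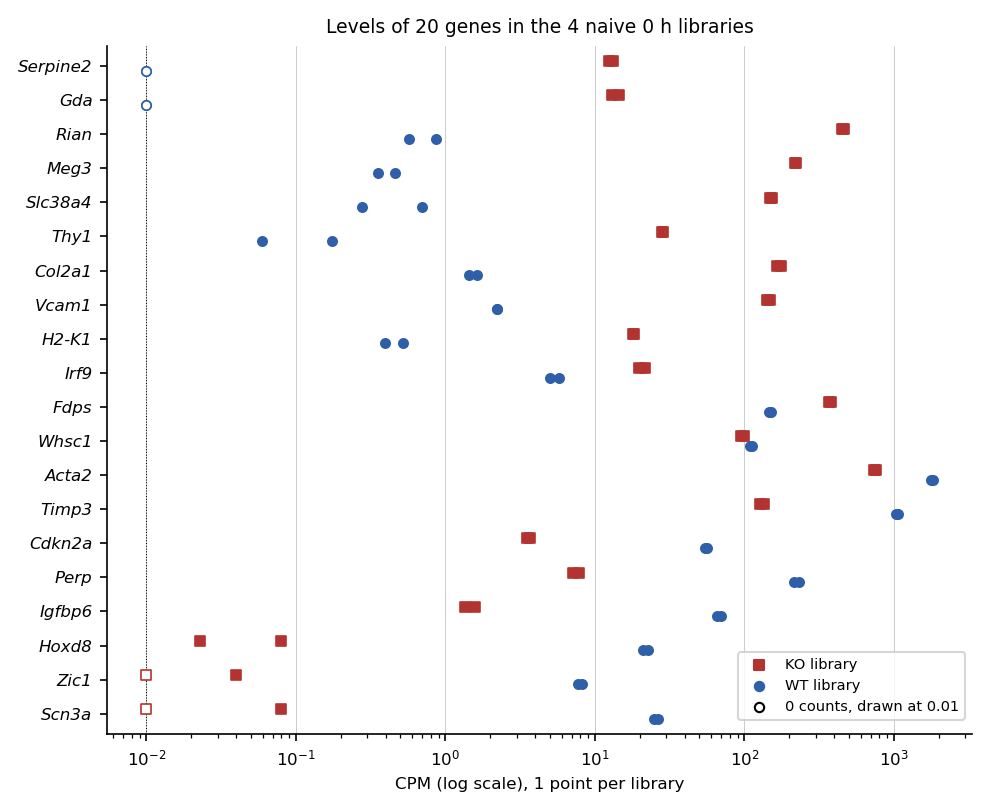
Level of 20 genes in each of the 4 libraries, in CPM on a log scale, with KO as red squares and WT as blue circles and libraries without a count drawn as open symbols at 0.01. The gap between the genotypes is smallest for Whsc1, from 99.7 to 108 CPM.

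The imprinted Dlk1 to Dio3 region on chromosome 12 was among the strongest differences. Imprinted genes are expressed from the copy of one parent, and in this region the noncoding RNAs Meg3, Rian and Mirg come from the maternal copy and Dlk1 and Rtl1 from the paternal one. The window of 250 bases before the first annotated start of Meg3 and that of Dlk1 are shown because both genes went from low to high in KO, and because DNA methylation at CpG sites marks the copies of this region. They lie at chr12:109540746-109540995 and chr12:109452573-109452822, plus strand, in RefSeq's GRCm38.p6, with 10 and 8 CpG sites in capitals. A second Meg3 window, at chr12:109545148-109545397, held 0 CpG sites and is not shown.
Meg3: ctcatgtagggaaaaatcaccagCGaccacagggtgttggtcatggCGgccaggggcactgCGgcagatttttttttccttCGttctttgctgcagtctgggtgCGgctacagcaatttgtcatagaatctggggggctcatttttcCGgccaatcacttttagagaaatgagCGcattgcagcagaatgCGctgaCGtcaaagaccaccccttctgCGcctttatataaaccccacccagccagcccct
Dlk1: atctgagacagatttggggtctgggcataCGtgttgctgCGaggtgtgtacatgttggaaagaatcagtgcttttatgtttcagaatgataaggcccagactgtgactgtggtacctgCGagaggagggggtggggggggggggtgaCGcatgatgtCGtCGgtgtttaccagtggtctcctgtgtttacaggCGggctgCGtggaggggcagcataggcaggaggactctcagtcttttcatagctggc

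Rian was at 465 and 452 CPM in KO and 0.572 and 0.868 CPM in WT, 703-fold higher (edgeR adjusted p = 2.1e-33). Meg3 was at 218 and 222 CPM in KO and 0.355 and 0.463 CPM in WT, 569-fold higher (edgeR adjusted p = 8.2e-32). Mirg, which hosts many microRNAs, was at 15.7 and 16.3 CPM in KO and 0.0197 and 0 CPM in WT. The maternal transcripts were thus below 1 CPM in both WT libraries and above 15 CPM in both KO libraries.

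The paternal genes moved the same way. Dlk1, a membrane protein that holds back adipocyte differentiation, was at 44.2 and 46.6 CPM in KO and 5.78 and 6.48 CPM in WT, 7.59-fold higher (edgeR adjusted p = 2.9e-23). Rtl1, a gene derived from a retrotransposon, was at 28.8 and 30.3 CPM in KO and 0.0197 and 0.116 CPM in WT. The strand setting of the counts is not given in the sources used here, so reads of Rtl1 and of the RNA antisense to it cannot be told apart. Begain, beside Dlk1, was 7.29-fold higher, at 1.19 and 1.57 CPM in KO and 0.217 and 0.116 CPM in WT.

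Over the whole list of imprinted genes both directions occurred. Of 28 tested, 16 were higher and 8 lower, 13 and 2 by at least 2-fold, with a median log2 change of 0.434. These include Dlk1, Meg3, Rian, Mirg and Rtl1, and among the other 23 genes 11 were higher and 8 lower, 8 and 2 by at least 2-fold, with a median of 0.277. Slc38a4, an amino acid transporter expressed from the paternal copy, was at 154 and 148 CPM in KO and 0.276 and 0.695 CPM in WT, 389-fold higher (edgeR adjusted p = 1.5e-30). Igf2r, the receptor that clears IGF2, was at 607 and 598 CPM in KO and 177 and 171 CPM in WT, and Airn, the noncoding RNA that overlaps it, was at 2.89 and 4.07 CPM against 0.986 and 0.637 CPM. Mest, expressed in embryonic mesoderm, was lower, at 0.0792 and 0.257 CPM in KO and 1.60 and 1.68 CPM in WT.

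Hox genes, which set position along the body axis, were lower on balance, and the HoxD cluster was nearly silent in KO. Of 25 tested, 4 were higher and 13 lower, 1 and 9 by at least 2-fold, with a median log2 change of -0.412. All 5 tested HoxD genes were called lower by at least 2-fold, and the summed level of the HoxD genes was 0.119 and 0.164 CPM in KO against 33.2 and 35.5 CPM in WT. By cluster, 3 tested HoxA genes were higher and 3 lower, 1 HoxB gene was higher and 3 lower, and both tested HoxC genes were lower. Without WT replicate 1, a second Hox gene passed 2-fold higher.

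The windows of 250 bases before the starts of Hoxd8, Hoxd9 and Hoxd10 are shown because these neighbouring genes were all lower and at or near 0 in KO. They lie at chr2:74704365-74704614, chr2:74697513-74697762 and chr2:74691641-74691890, plus strand, GRCm38.p6 (RefSeq), with their 6, 13 and 20 CpG sites in capitals, against a median of 15 CpG sites over the promoters of all tested genes.
Hoxd8: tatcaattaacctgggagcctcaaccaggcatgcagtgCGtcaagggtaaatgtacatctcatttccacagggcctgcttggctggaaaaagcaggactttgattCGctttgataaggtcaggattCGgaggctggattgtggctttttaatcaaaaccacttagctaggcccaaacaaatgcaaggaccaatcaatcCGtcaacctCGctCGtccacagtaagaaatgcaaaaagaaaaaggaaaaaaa
Hoxd9: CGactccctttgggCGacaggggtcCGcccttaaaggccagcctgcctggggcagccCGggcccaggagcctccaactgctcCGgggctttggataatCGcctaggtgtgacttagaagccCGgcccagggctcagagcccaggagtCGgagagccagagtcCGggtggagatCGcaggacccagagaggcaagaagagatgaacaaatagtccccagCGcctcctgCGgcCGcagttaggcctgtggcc
Hoxd10: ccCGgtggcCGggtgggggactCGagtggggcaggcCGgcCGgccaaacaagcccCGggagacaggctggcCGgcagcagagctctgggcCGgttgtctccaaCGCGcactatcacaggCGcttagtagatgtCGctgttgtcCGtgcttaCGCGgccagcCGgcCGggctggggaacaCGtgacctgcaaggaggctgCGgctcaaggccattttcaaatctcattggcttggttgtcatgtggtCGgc

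Hoxd8 was at 21.0 and 22.8 CPM in WT and 0.0792 and 0.0234 CPM in KO, a ratio of 487 (95% counting interval 166 to 2363). Hoxd9 was at 7.53 and 7.47 CPM in WT and 0 and 0.0468 CPM in KO, a ratio of 256 (70.4 to 2116). Hoxd4 and Hoxd3 were at 1.27 to 3.59 CPM in the WT libraries and at or below 0.0702 CPM in the KO libraries. Hoxd10 was lower still in WT, at 0.355 and 0.347 CPM, and had no count in KO, at least 8.002-fold lower. Among the other clusters, Hoxa2 was 2.12-fold higher, at 14.9 and 13.3 CPM in KO and 6.51 and 6.83 CPM in WT, and Hoxb2 was 2.64-fold lower, at 2.89 and 2.76 CPM in KO and 7.02 and 8.28 CPM in WT.

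Other transcription factors of embryonic patterning moved in both directions. Of 68 tested, 36 were higher and 21 lower, 19 and 12 by at least 2-fold. Tbx18, a T-box factor of the epicardium and somites, was at 18.5 and 16.4 CPM in KO and 0.0394 and 0 CPM in WT. Ebf2, a factor of mesenchymal and brown fat precursors, was at 19.6 and 21.7 CPM in KO and 0.138 and 0 CPM in WT, 194-fold higher (edgeR adjusted p = 5.0e-23). Eya1, a transcriptional coactivator of organ formation, was 105-fold higher, and Tbx20, a cardiac T-box factor, was at 31.9 and 33.1 CPM in KO and 3.17 and 2.66 CPM in WT. Meis1 and Meis2, cofactors of Hox proteins, were 3.17-fold and 4.16-fold higher.

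On the side lost in KO, Zic1, a zinc finger factor of neural crest and dorsal somites, was at 7.75 and 8.16 CPM in WT and 0.0396 and 0 CPM in KO. Nkx2-5, a cardiac homeobox gene, was at 5.68 and 5.79 CPM in WT and 0.0396 and 0.0234 CPM in KO, and Mef2c, a muscle and endothelial factor, was at 4.73 and 4.17 CPM in WT and 0.238 and 0.281 CPM in KO. Cardiac factors therefore stood on both sides, with Tbx20 and Tbx18 higher and Nkx2-5 and Mef2c lower.

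Interferon-stimulated genes were higher in KO cells that had received no interferon, mostly from low levels. Of 70 tested antiviral genes, 43 were higher (61.4%) and 10 lower, and 29 were at least 2-fold higher (41.4%) and 4 at least 2-fold lower, with a median log2 change of 0.676. Trim25, a ubiquitin ligase that acts on RIG-I, was at 9.71 and 10.7 CPM in KO and 0.256 and 0 CPM in WT, 52.8-fold higher (edgeR adjusted p = 1.3e-18). Parp12, an antiviral ADP-ribosyltransferase, was at 12.6 and 14.7 CPM in KO and 1.36 and 1.16 CPM in WT, 10.5-fold higher (edgeR adjusted p = 4.2e-20).

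Ube2l6, the conjugating enzyme for ISG15, was at 13.5 and 13.3 CPM in KO and 2.52 and 2.14 CPM in WT, 5.53-fold higher. Apobec3, a cytidine deaminase that restricts retroviruses, and Lgals3bp, a secreted lectin-binding glycoprotein, were 2.86-fold and 2.85-fold higher. Helz2, a helicase, was 2.12-fold higher, at 52.0 and 48.7 CPM in KO and 23.7 and 23.8 CPM in WT. In none of these did a KO library overlap a WT library. They were named for having the smallest p of the list in these same libraries, so their separation is largely part of the choice. Of all 13802 tested genes, 11250 did not overlap either.

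Other members of the list, named here after their values were seen, were scarce and did not move alike. Isg15, the ubiquitin-like modifier, was at 1.51 and 1.68 CPM in KO and 0.256 and 0.405 CPM in WT (log2 change 2.44 ± 0.30, edgeR adjusted p = 4.2e-08). Oasl2 was at 1.47 and 1.38 CPM against 0.118 and 0.289 CPM, and Bst2, which tethers virus particles to the cell, was at 9.47 and 7.79 CPM against 2.46 and 1.91 CPM. Ifit1, whose product binds viral RNA, was at 3.60 and 2.64 CPM in KO and 1.16 and 2.26 CPM in WT, with the groups close, and lost its call without WT replicate 1. Mx1 was at 0.116 to 0.158 CPM in the 4 libraries and was not called. Slfn4 went the other way, at 0 and 0.0234 CPM in KO and 1.52 and 0.810 CPM in WT. Oas3 and Oas1g were not called (edgeR adjusted p = 0.33 and 0.13).

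Of 17 tested interferon-inducible GTPases, which attack the vacuoles of pathogens, 8 were higher and 2 lower, 5 and 2 by at least 2-fold. Without WT replicate 1 these were 4 higher, 3 of them by at least 2-fold, and without KO replicate 1 or WT replicate 2 only 1 was at least 2-fold lower. Irgm1 was at 58.6 and 54.3 CPM in KO and 42.3 and 45.0 CPM in WT, Ifi47 was at 2.46 and 2.64 CPM against 0.907 and 0.926 CPM, and Gbp2 was lower, at 2.26 and 1.89 CPM against 4.48 and 4.86 CPM.

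A set of interferon-induced genes taken from other libraries was split in the same directions. In WT cells, 273 genes (1.98% of those tested) were called and at least 2-fold higher 2 h into restimulation than at pretreated 0 h. At naive 0 h, 133 of the 273 were higher in KO (48.7%) and 53 lower (19.4%), 83 (30.4%) and 31 (11.4%) by at least 2-fold, and their median log2 change was 0.424. The set held 50 of the antiviral list and also genes of growth and injury responses, and the members with the smallest p were of that kind. Igfbp3, an IGF-binding protein, was at 64.8 and 62.1 CPM in KO and 0.296 and 0.289 CPM in WT, Hgf was at 34.0 and 30.5 CPM against 0.197 and 0.174 CPM, and Dusp4 was 7.56-fold higher. Thbd, Ankrd1, Inhba and Hmox1 were lower, by 45.8-fold, 18.1-fold, 4.76-fold and 3.87-fold.

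Genes that carry the interferon signal were mostly higher or not called. Of 27 tested, 18 were higher and 1 lower (2 lower in the fit with replicate number as a block), 8 by at least 2-fold upward and none downward, with a median log2 change of 0.319. The receptor chains Ifnar1 and Ifnar2 were 1.58-fold and 1.25-fold higher, with Ifnar1 at 88.6 and 85.7 CPM in KO and 54.9 and 55.7 CPM in WT. Tyk2, a kinase bound to Ifnar1, was 2.18-fold higher, at 42.5 and 41.6 CPM against 19.4 and 18.98 CPM, while Jak1 and Jak2 rose by log2 changes of 0.20 ± 0.042 and 0.17 ± 0.054, the call of Jak2 being lost without KO replicate 2 or without WT replicate 1. Ifnb1, the gene of interferon beta itself, had no count in any of the 4 libraries.

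Irf9 and Stat2, subunits of the factor ISGF3, were both called. Irf9, which gives it DNA binding, was at 21.7 and 19.8 CPM in KO and 5.03 and 5.73 CPM in WT, 3.94-fold higher (edgeR adjusted p = 2.9e-17). Stat2 was at 21.5 and 22.4 CPM in KO and 11.0 and 9.84 CPM in WT, 2.06-fold higher.

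Brakes of the pathway were higher in part. Socs3, which blocks JAK kinases, was at 34.6 and 34.4 CPM in KO and 8.81 and 8.16 CPM in WT, 4.01-fold higher. Usp18, which restrains the receptor, was at 2.18 and 1.45 CPM against 0.296 and 0.405 CPM, and Ptpn6, a phosphatase, was at 1.90 and 1.66 CPM against 0.276 and 0.289 CPM. Socs1, Socs2, Ptpn1, Ptpn11 and Pias1 were not called. Of the interferon regulatory factors, Irf7 and Irf5 were 3.11-fold and 2.11-fold higher and Irf2 was 1.40-fold higher, Irf1 and Irf3 were not called, and Irf4 and Irf8 had too few counts to test. Tbk1, the kinase that activates IRF3, was the member called lower in the 8-group fit, at -0.18 ± 0.052.

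Among the sensors of foreign nucleic acid, 10 of 23 were higher and 7 lower, 8 and 3 by at least 2-fold. Tmem173, which encodes STING, was at 17.8 and 20.1 CPM in KO and 8.48 and 8.39 CPM in WT, and Ifi203 and Ifi204, of the p200 family whose near copies can share reads, were 17.4-fold and 2.18-fold higher. Tlr3, the endosomal receptor for double-stranded RNA, was lower, at 3.53 and 3.18 CPM in KO and 9.21 and 8.74 CPM in WT. Ripk3, the kinase of necroptosis, was lower, at 20.04 and 19.5 CPM against 45.2 and 40.2 CPM.

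Genes of MHC class I presentation, which display peptides to T cells, were higher in 15 of 22 and lower in 5, with 8 at least 2-fold higher and none at least 2-fold lower. H2-K1, a classical class I heavy chain, was at 17.9 and 18.4 CPM in KO and 0.394 and 0.521 CPM in WT, 42.1-fold higher (edgeR adjusted p = 3.5e-23). Nlrc5, the transactivator of class I genes, was at 7.57 and 7.18 CPM against 0.710 and 0.752 CPM, 10.1-fold higher. H2-T23 was 8.26-fold higher, Tap2, a subunit of the peptide pump, was 2.48-fold higher, and B2m, the shared light chain, was 1.30-fold higher, at 286 and 271 CPM against 211 and 219 CPM. Reads of near-identical H2 genes could have been split or left out by the counting.

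Chemokine, cytokine and NF-kB target genes were higher in 17 of 33 and lower in 9, 11 and 3 by at least 2-fold. Vcam1, an adhesion molecule for leukocytes, was at 148 and 142 CPM in KO and 2.21 and 2.20 CPM in WT, 65.6-fold higher (edgeR adjusted p = 3.8e-30). Il1rn, the interleukin 1 receptor antagonist, was at 206 and 197 CPM against 9.19 and 9.84 CPM, and Ccl2, which attracts monocytes, was at 4.95 and 5.71 CPM against 0.532 and 0.695 CPM. Cx3cl1 and Cxcl12 were 5.93-fold and 2.13-fold higher. Ptgs2, the inducible prostaglandin synthase, was 2.19-fold lower, at 55.2 and 52.9 CPM against 117 and 120 CPM.

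Complement and acute phase genes were higher in 11 of 17 and lower in 3, 8 and 2 by at least 2-fold, the 2 being 1 with DESeq2, without KO replicate 2 or without WT replicate 1. C3, the central complement protein, was at 13.2 and 10.8 CPM in KO and 0.237 and 0.289 CPM in WT, 46.6-fold higher. Hp, haptoglobin, was at 20.6 and 18.2 CPM against 0.335 and 0.463 CPM, 51.8-fold higher. C4b was at 4.28 and 4.33 CPM against 0.0197 and 0 CPM. Cd59a, which shields cells from complement, was lower, at 1.03 and 1.31 CPM against 5.30 and 5.67 CPM. Markers of macrophages and blood cells, 16 in all, summed to 8.04 and 9.35 CPM in KO and 13.9 and 13.8 CPM in WT, 6 of the 16 were at 0 in all 4 libraries, and Ptprc, which marks blood cells, was at or below 0.0592 CPM in each. Their part in the complement and chemokine results was not tested.

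**Figure D3:**
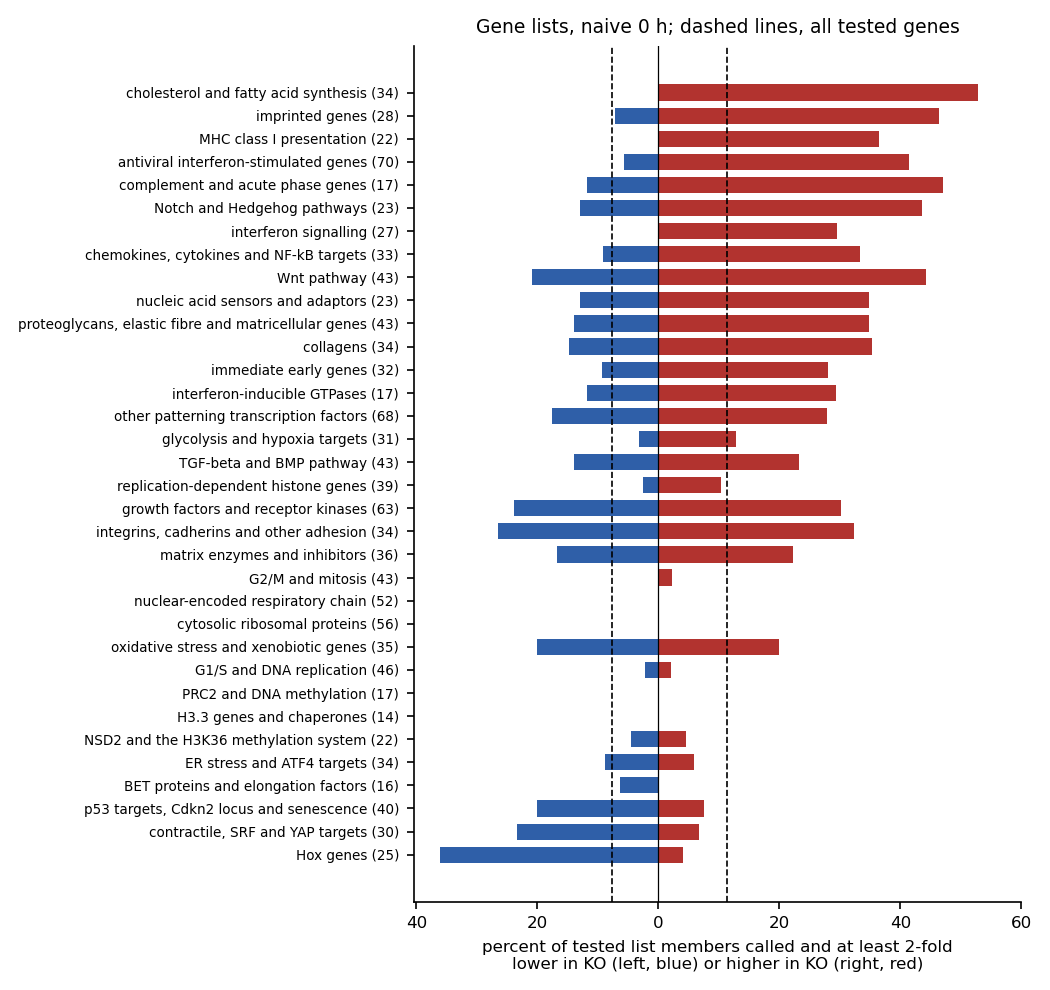
Share of the tested members of each gene list (number tested in brackets) that were called and at least 2-fold higher in KO (red, to the right) or lower (blue, to the left), in percent, with dashed lines at the shares over all tested genes, 11.4% and 7.73%. The cholesterol list reached 52.9% to the right with none to the left, and 9 of 25 Hox genes lay to the left.

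Cholesterol and fatty acid synthesis genes were higher nearly throughout. Of 34 tested, 32 were higher (94.1%) and 1 lower, and 18 (52.9%) were at least 2-fold higher and none at least 2-fold lower. The median log2 change was 1.045. These genes are driven by SREBP factors, which are activated when sterols in the endoplasmic reticulum are low and work with the CCAAT-binding factor NF-Y. The windows of 250 bases before 4 of these genes are shown for that reason, with each CCAAT, read on either strand (CCAAT or ATTGG), in capitals. They are chr8:122443423-122443672, minus strand, for Mvd, chrX:72918271-72918520, plus strand, for Nsdhl, chr13:8885356-8885605, plus strand, for Idi1, and chr19:6067851-6068100, minus strand, for Tm7sf2 (GRCm38.p6, RefSeq), each printed along the strand of its gene.
Mvd: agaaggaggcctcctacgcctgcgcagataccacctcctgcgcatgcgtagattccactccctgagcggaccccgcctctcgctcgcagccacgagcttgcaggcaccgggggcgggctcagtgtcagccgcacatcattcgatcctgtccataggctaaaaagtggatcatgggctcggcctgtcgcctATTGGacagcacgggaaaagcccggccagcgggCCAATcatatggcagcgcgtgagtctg
Nsdhl: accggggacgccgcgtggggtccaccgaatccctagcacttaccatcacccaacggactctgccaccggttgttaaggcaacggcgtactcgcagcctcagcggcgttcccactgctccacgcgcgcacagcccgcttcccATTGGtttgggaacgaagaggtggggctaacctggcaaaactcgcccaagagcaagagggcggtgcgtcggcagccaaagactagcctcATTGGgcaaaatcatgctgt
Idi1: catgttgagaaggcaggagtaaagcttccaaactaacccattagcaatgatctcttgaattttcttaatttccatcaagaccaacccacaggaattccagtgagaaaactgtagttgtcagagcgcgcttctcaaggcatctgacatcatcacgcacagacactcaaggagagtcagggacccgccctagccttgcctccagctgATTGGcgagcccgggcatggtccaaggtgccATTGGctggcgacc
Tm7sf2: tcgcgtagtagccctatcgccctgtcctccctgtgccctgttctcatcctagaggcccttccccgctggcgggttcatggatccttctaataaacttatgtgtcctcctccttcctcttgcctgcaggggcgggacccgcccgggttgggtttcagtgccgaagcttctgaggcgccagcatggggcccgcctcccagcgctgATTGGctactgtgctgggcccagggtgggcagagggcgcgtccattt

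The CCAAT letters were in 63.3% (19 of 30) of the promoter windows of the list, in 35.6% of those of all tested genes and in 33.8% of all 32851 windows in the RefSeq table. Of the 34 genes, 23 had a window, some more than 1. The sterol element TCACNCCAC, read on either strand, was in none of the 30 and in 1.02% of the windows of all tested genes. These matches describe letters in the window and not binding.

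Along the pathway, both early and late enzymes were among those raised, by unequal amounts. Mvd, Idi1 and Fdps, which make and join isoprenoid units, were 2.90-fold, 2.13-fold and 2.54-fold higher, with Fdps at 379 and 369 CPM in KO against 145 and 150 CPM in WT. Fdft1, the first step committed to sterols, was 2.38-fold higher, and Nsdhl and Tm7sf2, of the later steps, were 2.65-fold and 3.14-fold higher. Mvk, an early enzyme, and Cyp51, a late one, had log2 changes of 0.26 and 0.35, and Ebp, also late, was not called (edgeR adjusted p = 0.36). Hmgcs1, an early step, was listed at 0 in all 15 libraries and gave no value.

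Of the control genes of sterols, the Insig pair moved in opposite directions. Insig1, a sterol-controlled brake on SREBP, was 2.63-fold higher, at 212 and 203 CPM in KO against 78.3 and 80.0 CPM in WT, while Insig2, which is not under that control, was the member called lower, at -0.19 ± 0.065, and lost its call with DESeq2, without KO replicate 2 and without WT replicate 2. Of the fatty acid genes, Scd1 and Elovl6 were 2.30-fold and 3.12-fold higher.

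The sterol difference was smaller after interferon pretreatment and washout. The median of the list was 0.516 at pretreated 0 h, 0.367 at pretreated 2 h and 0.773 at naive 2 h. In the test of the difference between pretreated and naive 0 h, 29 of the 34 members were called toward a lower KO level. None was called toward a higher one. Over all tested genes that test called 445 (3.22%), 209 toward a lower KO level (1.51%) and 236 toward a higher one (1.71%). For Idi1 the log2 change went from 1.09 at naive 0 h to 0.22 at pretreated 0 h (edgeR adjusted p of the difference 1.0e-09), and for Insig1 from 1.39 to 0.65.

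Contractile genes and other targets of SRF and YAP, among them the actins of stress fibres, were mostly lower. Of 30 tested, 22 were lower (73.3%) and 6 higher, 7 (23.3%) and 2 by at least 2-fold, with a median log2 change of -0.621. Without WT replicate 2, 1 member was at least 2-fold higher. Actg2, a smooth muscle actin, was at 2.496 and 1.89 CPM in KO and 135 and 148 CPM in WT, 66.3-fold lower (edgeR adjusted p = 3.7e-28). Ankrd1, a YAP target, was at 5.62 and 5.57 CPM against 101 and 101 CPM, 18.1-fold lower.

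Acta2, the actin of myofibroblasts, was at 759 and 742 CPM in KO and 1783 and 1818 CPM in WT, 2.40-fold lower (edgeR adjusted p = 9.0e-19). Cnn1, Myl9 and Cald1, which regulate or build the contractile filament, were 6.21-fold, 2.82-fold and 2.34-fold lower. The YAP targets did not move alike: Amotl2 and Cyr61 were 2.63-fold and 1.96-fold lower, while Ctgf was at 108 and 111 CPM in KO and 111 and 105 CPM in WT and was not called (edgeR adjusted p = 0.72). Tead1, the DNA-binding partner of YAP, was higher, at 90.5 and 99.9 CPM against 21.5 and 18.2 CPM. Smooth muscle and pericyte markers, summed, were at 162 and 158 CPM in KO and 185 and 197 CPM in WT. Actg2 is among them and made up most of the WT sum. Of the 6 tested, 3 were higher and 3 lower, 2 each by at least 2-fold, with a median log2 change of 0.063. Myh11 and Myocd, which define smooth muscle, had too few counts to test, and what those cells contribute was not tested.

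The matrix changed in makeup. Of 34 collagen genes tested, 16 were higher and 11 lower, 12 and 5 by at least 2-fold. Col2a1, the collagen of cartilage, was at 165 and 176 CPM in KO and 1.62 and 1.45 CPM in WT, 108-fold higher (edgeR adjusted p = 1.7e-30). Col4a1 and Col4a2, the pair of basement membrane chains, were 2.26-fold and 2.59-fold higher, and Col3a1 was 2.54-fold higher, at 650 and 605 CPM against 248 and 244 CPM. Col1a2, a chain of the main fibrillar collagen, was 2.00-fold lower, at 3193 and 3211 CPM against 6485 and 6299 CPM, and Col6a3 and Col4a6 were 3.40-fold and 56.8-fold lower.

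Of 43 proteoglycan, elastic fibre and matricellular genes, 23 were higher and 14 lower, 15 and 6 by at least 2-fold. Spp1, osteopontin, was at 1230 and 1175 CPM in KO and 55.6 and 60.5 CPM in WT, 20.9-fold higher. Thbs2 was at 64.1 and 63.1 CPM against 0.237 and 0.174 CPM, 283-fold higher, whereas its relative Thbs1 was at 330 and 315 CPM against 1492 and 1402 CPM, 4.49-fold lower. Fbln1 and Ltbp2, of the elastic fibre, were 94.9-fold and 137-fold higher. Among 36 matrix enzymes and inhibitors, 19 were higher and 14 lower. Timp3, a metalloproteinase inhibitor, was at 135 and 127 CPM against 1026 and 1070 CPM, 8.03-fold lower, and Loxl2, which crosslinks collagen, was 18.5-fold higher.

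Adhesion genes split nearly evenly, with 15 of 34 higher and 13 lower, 11 and 9 by at least 2-fold. Cadherins moved both ways: Cdh11, the cadherin of mesenchyme, was 20.1-fold higher at 297 and 285 CPM against 14.6 and 14.2 CPM, Cdh13 was 40.3-fold higher, and Cdh3 was 55.9-fold lower at 1.15 and 0.818 CPM against 53.2 and 52.5 CPM. Itga3 and Itga6, laminin receptor subunits, were 10.6-fold and 6.18-fold higher.

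Signals between cells changed on both sides. Of 63 growth factor and receptor kinase genes, 30 were higher and 25 lower, 19 and 15 by at least 2-fold. Ptn, pleiotrophin, was at 182 and 174 CPM in KO and 0.572 and 1.04 CPM in WT, 255-fold higher. Pdgfra, a platelet-derived growth factor receptor, was at 118 and 112 CPM against 5.94 and 5.96 CPM, while its partner Pdgfrb was at 206 and 203 CPM against 210 and 200 CPM and was not called. Ntrk3, a neurotrophin receptor, and Igfbp6 were 48.8-fold and 45.1-fold lower.

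Of 43 Wnt pathway genes, 23 were higher and 14 lower, 19 and 9 by at least 2-fold. Secreted antagonists were on the higher side, with Sfrp1 at 73.3 and 71.4 CPM in KO and 1.26 and 0.984 CPM in WT, and Dkk3 at 77.5 and 70.0 CPM against 0.197 and 0.579 CPM. Wnt10b, a ligand, was 24.5-fold lower, and Lef1, a nuclear partner of beta-catenin, was at 0.436 and 0.351 CPM against 6.09 and 7.47 CPM. Of 43 TGF-beta and BMP genes, 22 were higher and 13 lower. Tgfbi and Id1, targets of the pathway, were 5.67-fold and 2.85-fold higher, and the ligands Inhba, Gdf5 and Gdf15 were 4.76-fold, 71.8-fold and 62.9-fold lower. Of 23 Notch and Hedgehog genes, 14 were higher and 7 lower (4 lower without KO replicate 2), with Notch1 4.12-fold and the Hedgehog co-receptor Boc 10.3-fold higher, and Hey2, a Notch target, 58.3-fold lower.

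The Cdkn2 locus, whose products halt the cell cycle, was lower in KO. Cdkn2a, whose count does not separate p16 from p19ARF, was at 3.53 and 3.69 CPM in KO and 56.5 and 54.8 CPM in WT, 15.4-fold lower (edgeR adjusted p = 3.6e-25). Cdkn2b, its neighbour, was at 6.77 and 6.55 CPM against 24.9 and 27.6 CPM, 3.91-fold lower. The next tested genes on chromosome 4, Elavl2 and Tusc1, were lower too, with Elavl2 at 0.475 and 0.631 CPM against 4.36 and 5.32 CPM.

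Of the 40 tested p53, Cdkn2 and senescence genes, 15 were higher and 20 lower, 3 and 8 by at least 2-fold, the 3 being 1 without WT replicate 1. Perp, a p53 target of desmosomes, was at 7.80 and 7.09 CPM in KO and 213 and 231 CPM in WT, 30.0-fold lower (edgeR adjusted p = 1.7e-30). Mdm2 and Cdkn1a moved less. Mdm2 was at 108 and 113 CPM against 155 and 159 CPM (log2 change -0.50 ± 0.046). Cdkn1a, which encodes p21, was at 49.95 and 49.0 CPM against 55.4 and 53.8 CPM (-0.15 ± 0.055). Its call was lost with DESeq2, without KO replicate 2 and without WT replicate 1. Among other targets, Pmaip1 and Plk2 were lower, with log2 changes of -1.33 and -1.40, and Zmat3 was higher, at 0.38.

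Mitotic genes were slightly higher. Of 43 G2/M genes, 32 were higher (74.4%) and 5 lower, 1 of them by at least 2-fold, with a median log2 change of 0.284. The 5 lower were 2 with DESeq2 and 3 without KO replicate 1 or without WT replicate 1, and without KO replicate 1 no member was at least 2-fold higher. Cdc25b, a phosphatase that starts mitosis, was at 69.8 and 66.9 CPM in KO and 33.1 and 35.2 CPM in WT, 2.01-fold higher. Bub1b, of the spindle checkpoint, and Ccna2, cyclin A, were 1.64-fold and 1.51-fold higher. Cdk1 was lower, at 118 and 121 CPM against 157 and 161 CPM.

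Of 46 G1/S and replication genes, 21 were higher and 12 lower, and the cyclins moved unequally. Ccnd1 was at 345 and 345 CPM in KO and 540 and 565 CPM in WT, Ccnd2 was at 265 and 261 CPM against 709 and 660 CPM, 2.60-fold lower, and Ccne1 was at 19.3 and 17.6 CPM against 36.5 and 36.5 CPM. Ccnd3 was higher, at 53.5 and 49.5 CPM against 43.1 and 40.9 CPM, and Ccne2 was not called (edgeR adjusted p = 0.52). Replication-dependent histone genes were higher in 33 of 39 (84.6%) and lower in 2, 4 and 1 by at least 2-fold, with a median log2 change of 0.618. Without KO replicate 1, 7 were at least 2-fold higher. Hist1h2ak was at 69.7 and 74.1 CPM against 10.8 and 11.7 CPM, and Hist1h1a was 12.6-fold lower, at 14.2 and 13.8 CPM against 174 and 179 CPM. Near-identical histone genes share reads, and which copy a read came from is uncertain.

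Ribosomal and respiratory chain genes had no change of 2-fold. Of 56 cytosolic ribosomal protein genes, 23 were higher and 14 lower (8 or 9 lower with DESeq2 or without KO replicate 1, KO replicate 2 or WT replicate 2), none by 2-fold, with a median log2 change of 0.054. Of 52 nuclear-encoded respiratory chain genes, 13 were higher and 25 lower, none by 2-fold, with a median of -0.112. Of 31 glycolysis and hypoxia genes, 9 were higher and 12 lower, 4 and 1 by at least 2-fold, with a median of 0.001. Epas1, a hypoxia-inducible factor, was at 3.13 and 2.99 CPM in KO and 0.0197 and 0.0579 CPM in WT, a ratio of 103 (95% counting interval 28.3 to 860). Of 34 ER stress and ATF4 targets, 9 were higher and 16 lower, 2 and 3 by at least 2-fold. Stc2, a secreted glycoprotein, was at 0.0396 and 0 CPM in KO and 3.04 and 2.03 CPM in WT, a ratio of 189 (33.5 to 7506). Aldh1l2, a mitochondrial folate enzyme, was 2.90-fold lower, at 162 and 154 CPM against 463 and 450 CPM.

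**Figure D4:**
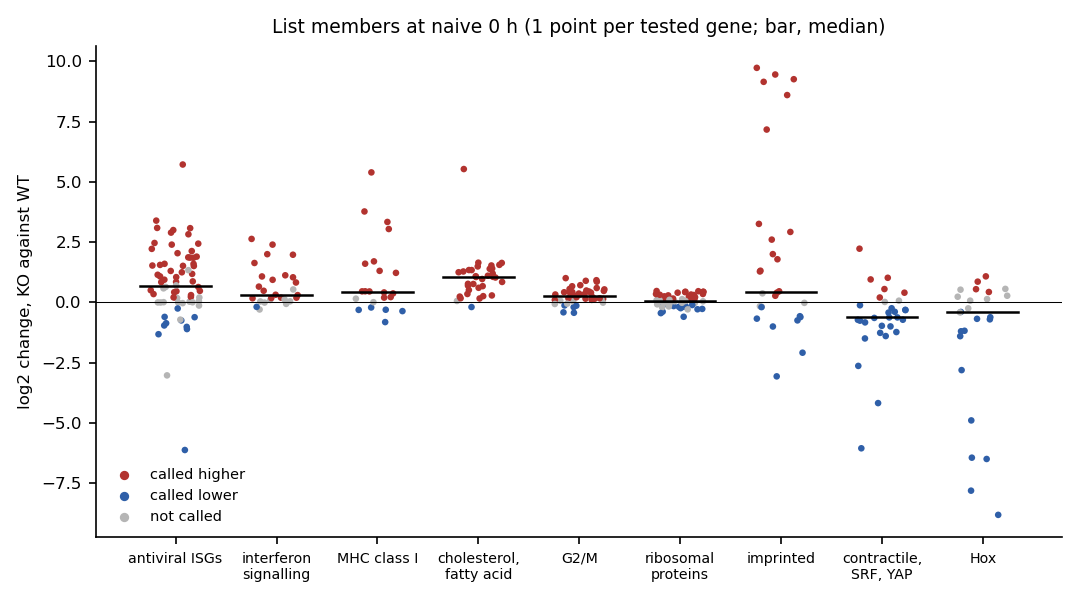
Log2 change of KO against WT for every tested member of 9 gene lists, with genes called higher in red, called lower in blue and not called in grey, and the median of each list as a bar. Of 34 cholesterol genes 32 were called above 0, with a median of 1.045, ribosomal protein genes lie close to 0 with a median of 0.054, and Hox genes reach down to Hoxd8 at -8.81.

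Stress and signal-response genes were mixed. Of 32 immediate early genes, 17 were higher and 11 lower, 9 and 3 by at least 2-fold. Egr1 was at 15.6 and 16.7 CPM in KO and 5.05 and 4.86 CPM in WT, and Jund was 2.16-fold higher, while Myc was at 18.7 and 17.9 CPM against 36.01 and 33.4 CPM. Of 35 oxidative stress and xenobiotic genes, 13 were higher and 17 lower, 7 each by at least 2-fold, with Mgst1, a membrane glutathione transferase, 33.7-fold higher and Gsta4, a cytosolic one, 12.8-fold lower. Cyp1b1 was 4.15-fold higher, at 427 and 408 CPM against 102 and 98.9 CPM. Of 28 germline genes, 5 had enough counts to test, and none of the 5 was above 1 CPM in any library.

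The cells carried fibroblast markers in both genotypes, with differences among them. All 14 fibroblast markers were tested, and 8 were higher and 5 lower in KO, 4 and 1 by at least 2-fold (the 1 being 2 without KO replicate 2, without WT replicate 2, in the fit of 2 groups, or with Rn45s and Lars2 left out). Vim, vimentin, was at 3514 and 3471 CPM in KO and 4319 and 4578 CPM in WT. Thy1, a surface protein of many fibroblasts, was at 28.3 and 28.6 CPM in KO and 0.0592 and 0.174 CPM in WT, 308-fold higher, and Lum, a proteoglycan of stroma, was at 1.39 and 1.24 CPM in KO with no count in WT. Dcn, decorin, was 4.25-fold lower, at 3.96 and 4.47 CPM against 16.9 and 20.2 CPM. In WT, Thy1 and Lum were thus at or near 0.

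Markers of cartilage and bone summed to 1444 and 1402 CPM in KO and 95.4 and 101 CPM in WT, most of it from Spp1 and Col2a1, with 4 of 6 tested higher. Acan, Matn1, Sp7, Bglap, Ibsp and others of that list had too few counts to test. All 4 tested adipocyte markers were higher, with Cebpa at 13.2 and 13.1 CPM in KO and 0.0986 and 0 CPM in WT, while Adipoq and Plin1 had too few counts to test. Cardiac muscle markers summed to 3.49 and 3.62 CPM in KO and 28.1 and 29.3 CPM in WT, mostly Tnnt2, which was 36.2-fold lower. Of the 6 tested, 2 were higher and 3 lower, 2 each by at least 2-fold. The 2 higher were 1 in the fit of 2 groups or without WT replicate 1. Neuronal markers summed to 84.3 and 79.5 CPM in KO and 40.1 and 39.0 CPM in WT, and Rbfox3 and Snap25 had too few counts to test. The 6 tested neuronal markers were split, 3 higher and 3 lower, 2 and 3 by at least 2-fold, with a median log2 change of -0.856. Endothelial markers summed to 16.2 and 15.2 CPM in KO and 6.17 and 5.73 CPM in WT. Epithelial markers summed to 59.9 and 55.4 CPM against 22.8 and 24.1 CPM, and glial ones to 19.45 and 18.1 CPM against 4.77 and 5.44 CPM. Members went both ways, with 4 of 8, 2 of 4 and 2 of 5 tested higher and 3, 2 and 2 lower. Without KO replicate 2, 1 endothelial and 1 glial marker were lower. Sox2, of stem and neural cells, was at 3.09 and 2.20 CPM in KO with no count in WT. Whether cells of other types contributed was not tested.

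Genes on the Y chromosome were counted in both genotypes and were higher in KO. Kdm5d was at 46.7 and 46.0 CPM in KO and 15.1 and 15.97 CPM in WT, 3.01-fold higher (edgeR adjusted p = 2.9e-18). Uty, Ddx3y and Eif2s3y were 3.08-fold, 2.31-fold and 1.99-fold higher. Xist, the RNA of the silenced X chromosome, was at or below 0.237 CPM in all 4 libraries. All 4 tested Y-linked genes were thus higher in KO, without overlap of the libraries.

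Whole chromosomes differed by small amounts. Over genes of at least 5 mean CPM, assigned to chromosomes by RefSeq's GRCm38.p6 annotation, the median log2 change was -0.0133 over 9824 genes. It was -0.395 on chromosome 6 and -0.396 on chromosome 10, where 18.8% and 18.2% of genes had a positive change. It was 0.305 on chromosome 12, 0.291 on chromosome 18, 0.260 on chromosome 1 and 0.199 on chromosome 2. In windows of 50 neighbouring genes the lowest median was -0.637, on chromosome 10, and the highest was 0.623, on chromosome 13. Of the 50 genes in that chromosome 13 window, 40 were Hist1 histone genes, whose near-identical copies share reads. Chromosome 13 as a whole had a median of -0.133. With each gene's chromosome median subtracted, 1545 genes were at least 2-fold higher and 1015 at least 2-fold lower, against 1570 and 1067 without it. The count of 9258 called genes was not redone in this way. Changes of single genes given above, some of them of the size of these medians, were not set against them. Chromosome copy number was not measured, and its part in these values was not tested.

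**Figure D5:**
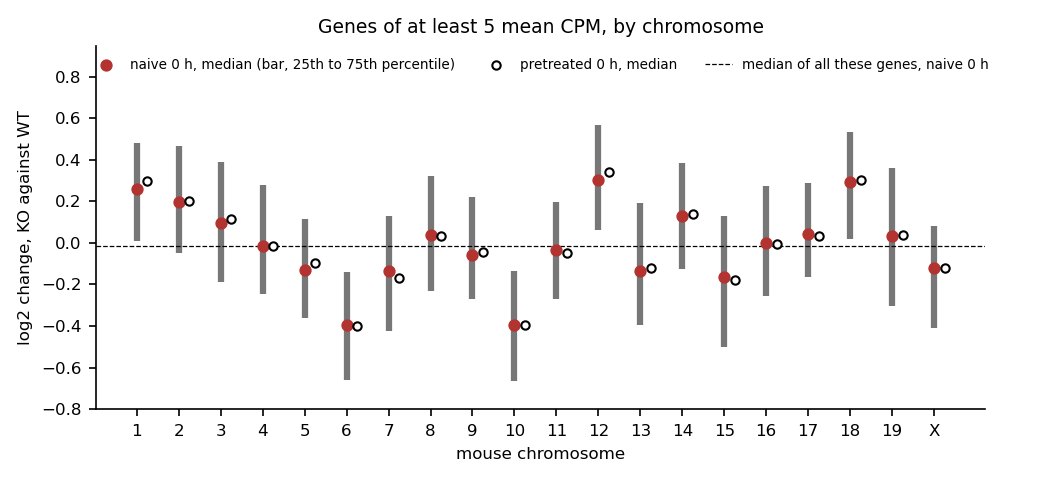
Median log2 change of KO against WT for genes of at least 5 mean CPM on each autosome and the X, at naive 0 h (red, with a bar from the 25th to the 75th percentile) and at pretreated 0 h (open circles). Chromosomes 6 and 10 lie lowest, at -0.395 and -0.396, and chromosome 12 highest, at 0.305, and the pretreated libraries lie close by.

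The chromosome medians recurred in the other libraries. Chromosome 6 had medians of -0.398 at pretreated 0 h, -0.361 at pretreated 2 h and -0.335 at naive 2 h, and chromosome 12 had a median of 0.341 at pretreated 0 h. Those values came from other libraries of the 2 genotypes.

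Large differences also lay in runs of neighbours. In 28 places at least 4 consecutive tested genes were all called and at least 2-fold changed in the same direction, 16 higher and 12 lower, covering 137 genes. The longest was of 13 genes on chromosome 18, from Pcdhac2 to Pcdhb13, all higher. Over the Pcdhb family of clustered protocadherins, which give neurons their surface identity, 19 of 21 tested were higher and 1 lower, with Pcdhb9 at 16.4 and 14.4 CPM in KO and 2.41 and 1.56 CPM in WT. The summed level of the family was 213 and 212 CPM in KO and 120 and 117 CPM in WT.

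The next longest run, of 7 genes on chromosome 13, held Serpinb1b and 6 Serpinb9 relatives, protease inhibitors, all lower. Serpinb9b was at 25.04 and 24.4 CPM in KO and 101 and 99.1 CPM in WT, 4.06-fold lower (edgeR adjusted p = 4.2e-22). Other runs were the 6 genes from Begain to Mirg on chromosome 12, the 6 from Hoxd10 to Hoxd4 on chromosome 2, and the 6 around P2ry14, a receptor for UDP sugars, on chromosome 3, where P2ry14 was at 1.03 and 0.695 CPM in WT with no count in KO. Near copies within the protocadherin and serpin families can share reads. Promoter windows of the genes at least 2-fold higher held a median of 11 CpG sites and those at least 2-fold lower a median of 8, against 15 over all tested genes.

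The naive difference recurred in the libraries of the other 3 conditions, which share none with it. Of the 2637 genes called and at least 2-fold changed at naive 0 h, 2389 (90.6%) were called in the same direction at pretreated 0 h, where 64.7% of all tested genes were called. At pretreated 2 h 2301 (87.3%) were called in the same direction, beside 66.3% of all tested genes called, and at naive 2 h 2254 (85.5%), beside 61.2%. KO naive 2 h had 1 library, which the fit assumes to vary like the other groups. Calls in the opposite direction numbered 3, 23 and 18, and the 3 at pretreated 0 h were Ccl9, Gbp3 and Ifi44, of which Ifi44 lost its naive call without KO replicate 2 or without WT replicate 2. Across all tested genes, which are not independent, the log2 changes at naive 0 h and pretreated 0 h had r = 0.937.

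Antiviral genes stood further apart in those conditions. The median of the antiviral list was 0.676 at naive 0 h, 1.324 at pretreated 0 h, 2.008 at pretreated 2 h and 3.338 at naive 2 h. In the test of the difference between pretreated and naive 0 h, 15 of the 70 antiviral genes (21.4%) were called toward a higher KO level. None was called toward a lower one. Parp12 went from a log2 change of 3.39 to 4.24. Of the 27 interferon signalling genes, 1 was called with a larger KO level and 2 with a smaller one, and of the 273 interferon-induced genes 35 and 8 were. The shares over all tested genes were 1.71% and 1.51%.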

How the data were processed

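Per the labels' protocols, TRIzol RNA went through NuGEN's Ovation SP Ultralow chemistry and was read as paired ends on a HiSeq2000. STAR 2.5.2b, HTSeq, bcl2fastq 2.15 and the build mm9 are named in the submitters' processing notes. Which annotation and which strand setting HTSeq used was not stated in the sources used here. The deposited files hold raw counts per gene, as the authors made them, 1 file per library, and 5 summary lines that name no gene were left out.

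All 15 libraries were fitted in edgeR 4.0.16 (R 4.3.3) as 8 groups with 7 residual degrees of freedom, after filterByExpr with a minimum count of 10 and TMM scaling. KO was compared with WT by the quasi-likelihood test, with Benjamini-Hochberg adjustment over all 13802 tested genes. The same fit gave the other 3 conditions and the test of the difference between pretreated and naive 0 h. On simulated counts for 13652 genes with 200 changed, 97% of log2 changes of 1 and 99% of those of 2 were recovered, and 3.45% of calls were false. Those counts were drawn from the fitted spread, with far fewer changed genes than the 9258 called in the data. The simulation therefore checks the code and does not give the error rate of this comparison.

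Alternatives were DESeq2 1.42.0, its size factors, no filter, removal of Rn45s and Lars2, a fit of these 2 groups, a replicate block and each library left out. Subtraction of chromosome medians was added after seeing the data. The 36 gene lists and 13 marker lists, and the genes compared, were chosen with earlier results of these data known. Genes named by rule, 361 in all, were Whsc1, the called genes that rose most (20) and fell most (20) without overlap of the libraries and with at least 5 CPM in the higher group, up to 6 called members per list and 8 interferon-induced genes by smallest p, and every member of the H3K36, H3.3, PRC2, interferon signalling and sex-linked lists. Other genes that a description needed were chosen after their values were seen. Some genes that the rule names are not reported here. Folds against groups with no count use a limit of 3 counts for the group, and counting intervals are exact at 95% and cover counting error only. Promoter windows are the 250 bases before each start in RefSeq's GRCm38.p6, matched by symbol for 10870 of the tested genes.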

Additional observations from a re-analysis of the deposited data

Results flagged for a closer look

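The results below had a KO against WT difference at pretreated 0 h that differed from that at naive 0 h in edgeR's test of the difference between the 2 (adjusted p below 0.05). That test called 3.22% of all tested genes. Each value is the log2 change at pretreated 0 h less the one at naive 0 h, over 2 libraries a group, so a positive value means that KO stood higher against WT after pretreatment.

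Genes of the interferon response had positive values. They were 2.973 for Ifi44, 1.83 for Gbp3, 1.502 for Gbp2, 1.143 for Nlrc5, 0.845 for Parp12, 0.739 for Tap2, 0.476 for Ifi204, 0.363 for Irgm1, 0.355 for B2m and 0.335 for Serpinb9. The values were negative for Ccl9, a chemokine, at -1.789, for the brake Socs3, at -0.628, and for the phosphatase Dusp4, at -0.623. Ptgs2 had a value of 0.314. Ifi44, Gbp3 and Ccl9, all past 2-fold at naive 0 h, were called in opposite directions in the 2 conditions. The log2 change of Ifi44 was -1.11 at naive 0 h and 1.87 at pretreated 0 h. That of Gbp3 was -1.08 and 0.75, and that of Ccl9 was 1.16 and -0.63.

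Genes of cholesterol and fatty acid synthesis had negative values. They were -0.865 for Idi1, -0.795 for Mvd, -0.759 for Elovl6, -0.743 for Insig1, -0.732 for Nsdhl, -0.675 for Tm7sf2, -0.59 for Fdps, -0.515 for Cyp51, -0.359 for Mvk, -0.41 for Fdft1 and -0.318 for Scd1.

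Contractile and matrix genes went both ways. The values were 0.602 for Ankrd1, 0.47 for Acta2, 0.363 for Myl9 and 0.344 for Cyr61, and -0.612 for Ctgf. They were 1.009 for Col2a1, 0.513 for Col3a1, 0.294 for Col1a2, 0.52 for Timp3 and 0.639 for Cdh11, and -1.906 for Dcn, -0.561 for Spp1 and -0.64 for Itga6. Signalling and other genes had values of 0.236 for Pdgfrb, 0.335 for Aldh1l2, -0.818 for Sfrp1, -0.532 for Id1, -0.27 for Igf2r and -0.257 for Ccnd1.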

How the results depend on the processing

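The number of genes called ranged from 7918 to 8667 with each library left out, and was 8145 with DESeq2 and 9370 with the replicate block. The deviations of same-numbered libraries correlated between -0.018 and 0.064. Such deviations hold much counting noise, so these values do not settle whether same-numbered libraries were paired. The block gave 1570 genes at least 2-fold higher and 1073 at least 2-fold lower. Of the list counts, that of lower interferon signalling genes moved by over 1.5 times, from 1 to 2, and of the interferon-induced genes 132 were higher and 55 lower, 81 and 30 by at least 2-fold. Among named genes it added calls of Socs1 and Lars2 and changed no other call. Genes at least 2-fold higher ranged from 1465 to 1551 with each library left out and those at least 2-fold lower from 1023 to 1055. With a threshold of 1.5-fold 1934 genes were lower, and with a threshold of 4-fold 898 were higher and 549 lower, since the threshold itself sets these counts. The size factors of DESeq2 moved the median of all genes by 0.0114. Of 1960 counts over the gene lists under the alternatives, 1895 were within 1.5 times the reported count. Of 2686 values of 269 named genes, 2653 kept direction and side of the threshold, 21 lost the call, 12 gained one and 0 reversed. Genes of few counts limit what can be seen: 13802 of 24015 listed genes could be tested, and 2 libraries a group measure only their own spread.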
